A study of Mus musculus with 18 samples.

Results

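Peroxisomes are small organelles that shorten very-long-chain and branched fatty acids, make the first steps of ether lipids and break down hydrogen peroxide. Their fatty acid β-oxidation runs as a short cycle of acyl-CoA oxidases, a bifunctional hydratase and dehydrogenase, and a thiolase, and shortened acyl groups leave as carnitine esters for the mitochondria. The peroxins, products of the *Pex* genes, build the organelle: they insert its membrane proteins, import its matrix enzymes and divide it. PPARα is a nuclear receptor for fatty acids that is known, above all in rodent liver, to raise genes of peroxisomal β-oxidation. The 46 genes described here were a list of peroxisomal genes, found by gene name among the 55487 genes of the count files. The list was chosen with earlier results of these data known. Of these, 33 encode matrix enzymes, transporters or other membrane proteins and 13 encode peroxins.

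The genes were measured by RNA-seq in whole-thickness ileum of 18 C57BL6/J mice fed chow, with 1 library per mouse. The IEC-*Ppara* mice carry CAG-*Ppara*,-*EGFP*, a FLAG-*Ppara*-IRES-*EGFP* cassette in the *Col1a1* locus that is turned around by Cre and then read from the CAG promoter, together with *Villin-CreERT2*, a tamoxifen-activated Cre under the *Villin* promoter of intestinal epithelium. There were 6 mice heterozygous and 6 mice homozygous for the transgene, with 2 females and 4 males in each group. The 6 controls were 3 female and 3 male mice that by the study's description carry the transgene without *Villin-CreERT2*. All mice, controls included, were 8 to 13 weeks old, received tamoxifen at 100 mg/kg on 3 consecutive days and were collected 2 weeks after the last injection. The transgene comes from 1 targeted insertion and Cre is driven in epithelium, whereas each library holds the whole gut wall, so that fewer cells of a type and less RNA per cell cannot be told apart.

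*Ppara*, the overexpressed gene, checked the labels. It ranged from 25.8 to 47.4 CPM (each gene's counts scaled to the library's total) in control libraries (median 39.4), from 107 to 196 in heterozygous libraries (median 136) and from 184 to 279 in homozygous libraries (median 211), so that both IEC-*Ppara* groups lay above every control. The counts summed to between 38528522 and 50376371 per library. Enterocyte genes (12 listed, among them *Vil1*, *Epcam* and *Fabp2*) were high in every library, with a summed level of 26345 to 36448 CPM in controls, 27912 to 34403 in heterozygous and 26138 to 34904 in homozygous mice, and these ranges overlapped. Other cell types of the wall were less even. The 12 B cell genes summed to 120 to 702 CPM in control 2, control 3, heterozygous 2 and homozygous 1 and to 45 CPM or less in the other 14 libraries. The 10 smooth muscle genes summed to 711 to 6480 CPM in controls, 885 to 4789 in heterozygous and 4453 to 10284 in homozygous libraries, and the 10 fibroblast genes to 1980 to 5255, 1542 to 3637 and 2804 to 6119. A list of 6 liver genes, a tissue not in the sample, summed to 4.16 to 78.0 CPM. Its medians were 14.0 CPM in control, 8.24 in heterozygous and 37.0 in homozygous libraries. A set of 6 adipocyte genes, chosen after the data were seen, summed to between 0.127 and 570 CPM over the 18 libraries. The medians of this set were 55.0, 2.18 and 114 CPM in the same order. Liver and adipocyte sums were high in the same libraries, among them control 4 (66.7 and 570 CPM) and heterozygous 4 (78.0 and 482 CPM). Libraries with an adipocyte sum of 104 CPM or more had liver sums of 18.1 to 78.0 CPM. In all the others the liver sum was 4.16 to 10.2 CPM.

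Control ileum expressed almost all of the list. Levels between genes were compared per length, in FPKM, which divides the scaled counts also by the length of the gene's exons. Catalase (*Cat*), which breaks down hydrogen peroxide, was the highest at 91.6 ± 11.6 FPKM (SD, n = 6), followed by *Phyh* (84.0), the phytanoyl-CoA hydroxylase that starts α-oxidation, *Scp2* (73.2), which encodes a sterol carrier and thiolase, and *Idh1* (51.8), an NADP-dependent isocitrate dehydrogenase. Among the β-oxidation genes the levels ran from 4.79 FPKM for *Acox2* to the 73.2 of *Scp2*, with *Acaa1a* and *Hsd17b4* both at 46.9 FPKM. Among peroxins *Pex19* was the highest at 24.9 FPKM and *Pex11g* the lowest at 1.41 FPKM, with a median of 5.47 FPKM over the 13 genes against 10.0 FPKM over the 33 others. *Abcd2* (0.755 FPKM) and *Hacl1* (0.194 FPKM) were at the bottom of the order. Neighbours in this order were rarely distinct: the control ranges of 41 of the 45 neighbouring pairs overlapped, and the 4 pairs that did not were *Scp2* and *Idh1*, *Hsd17b4* and *Abcd3*, *Pex26* and *Pex14*, and *Nudt12* and *Pex11g*.

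**Figure D1:**
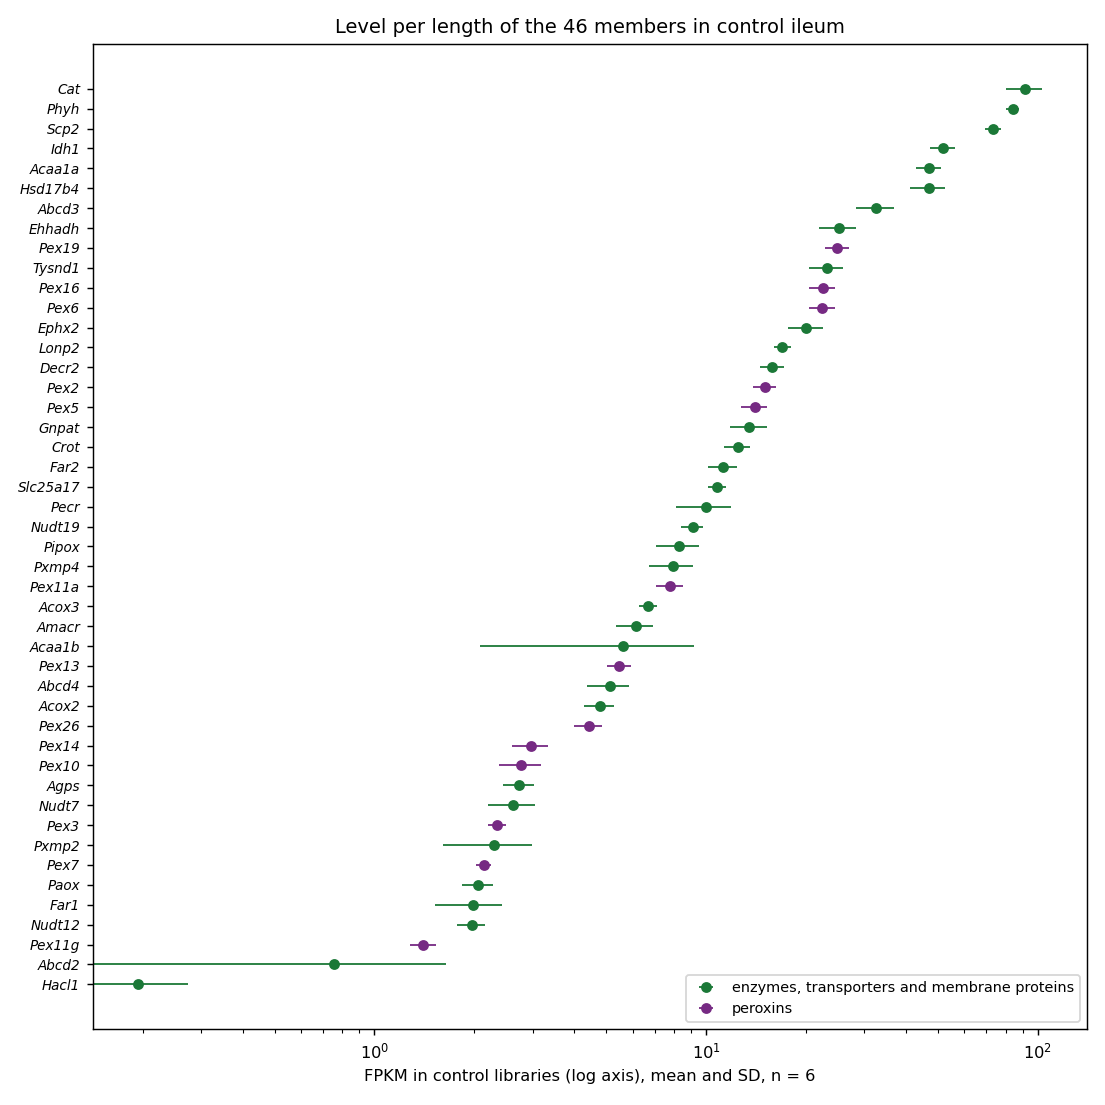
Level of each of the 46 members in the 6 control libraries in FPKM on a log axis, as mean and SD, with enzymes, transporters and membrane proteins in green and peroxins in purple. *Cat* is highest at 91.6 FPKM and *Hacl1* lowest at 0.194 FPKM, and the peroxins lie between 1.41 and 24.9 FPKM.

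The comparisons with control were fitted to all 12645 protein-coding genes that passed a filter of more than 3 CPM in at least 4 libraries. This left 45 of the 46 members. *Hacl1*, the lyase that follows *Phyh* in α-oxidation, did not pass. It lay between 0.537 and 1.53 CPM in controls, 0.555 and 1.31 in heterozygous and 0.709 and 1.21 in homozygous libraries, so that the groups overlapped. In the fit without a filter its log2 fold change was 0.12 ± 0.28 (SE) in homozygous mice (adjusted p = 0.938, edgeR).

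In homozygous IEC-*Ppara* ileum, 4 of the 45 tested members rose at an adjusted p under 0.05 (edgeR quasi-likelihood test, Benjamini-Hochberg), against 0.372% of all genes tested. No member fell, where 5 of all genes tested did. The members that rose were *Hsd17b4*, *Acaa1b*, *Decr2* and *Pxmp4*. In heterozygous ileum 4 members rose as well, against 0.293% of all genes, and no gene tested fell. These 4 were *Hsd17b4*, *Acaa1b* and *Pxmp4* again, and *Cat*. All of these encode matrix enzymes or a membrane protein, and no peroxin passed the test in either comparison. The 2 comparisons share the same 6 control libraries, so that they are not independent of each other. Without the 4 libraries richest in B cell genes, which leaves 14 libraries, *Pxmp4* alone passed in either comparison, while the homozygous log2 fold changes of *Hsd17b4*, *Acaa1b* and *Decr2* were 0.63, 2.09 and 0.31 and the heterozygous ones of *Hsd17b4*, *Acaa1b* and *Cat* 0.61, 2.00 and 0.54. With the sum of the smooth muscle genes as a covariate, a fit added after the data were seen, all members called in either comparison were called again.

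By an unadjusted p under 0.05, 16 of 45 members differed from control in homozygous mice, 15 of them higher, where 8.06% of all genes did (4.03% higher). In heterozygous mice the count was also 16, with 15 higher, where 5.29% of all genes did (2.76% higher). The log2 fold change was above 0 for 28 members in homozygous mice (48.1% of all genes) and for 39 members in heterozygous mice (47.5% of all genes). The median member differed little from control all the same, by 0.04 on the log2 scale in homozygous and 0.11 in heterozygous mice, beside -0.00 and -0.01 over all genes tested. For the 33 enzymes, transporters and membrane proteins, of which 32 were tested, the medians were 0.08 and 0.12, and for the 13 peroxins they were -0.03 and 0.09.

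**Figure D2:**
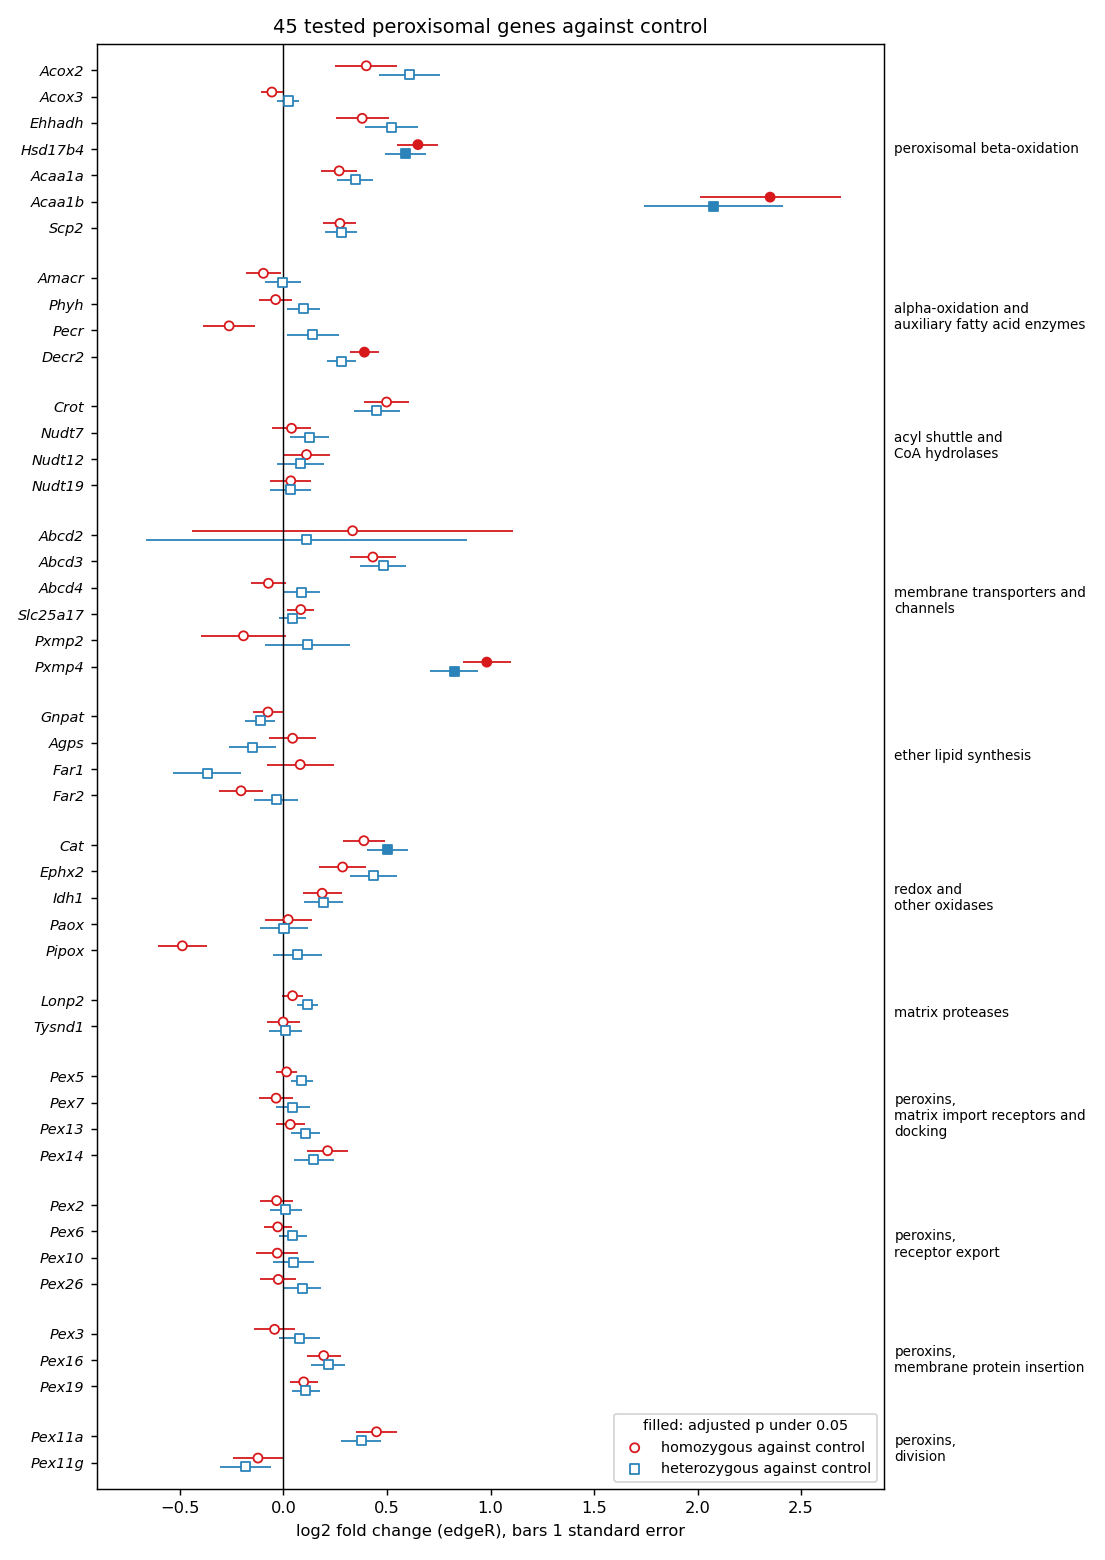
Log2 fold change against control of the 45 tested members, grouped by role, for homozygous (red circles) and heterozygous (blue squares) IEC-*Ppara* ileum, with bars of 1 SE from edgeR and filled symbols where the adjusted p was under 0.05. *Acaa1b* stands far to the right at 2.35 and 2.08, 6 of the 7 β-oxidation genes lie right of 0 in both groups, and most peroxins lie close to 0.

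Among the roles, the β-oxidation cycle had the most members at an unadjusted p under 0.05. All members of this group but *Acox3* had an unadjusted p under 0.05 and a higher level in both IEC-*Ppara* groups (6 of 7 in each), where 4.03% of all genes did in homozygous and 2.76% in heterozygous mice. The median log2 fold change of the 7 genes was 0.38 in homozygous and 0.52 in heterozygous mice, beside -0.00 and -0.01 over all genes tested. Only *Hsd17b4* and *Acaa1b* passed the adjusted test.

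*Acaa1b* encodes a 3-ketoacyl-CoA thiolase, the last step of the cycle, and had the largest fold change of the list. It ranged from 4.96 to 22.3 CPM in controls (median 8.87), from 28.3 to 63.8 in heterozygous libraries (median 41.2) and from 36.5 to 79.2 in homozygous libraries (median 54.8). Every IEC-*Ppara* library lay above every control library, and both IEC-*Ppara* groups overlapped each other. In the fit the log2 fold change was 2.35 ± 0.34 (SE) in homozygous mice (adjusted p = 0.00104) and 2.08 ± 0.34 in heterozygous mice (adjusted p = 0.00509, edgeR). On the FPKM scale the mean went from 5.64 in controls to 23.1 in heterozygous and 28.6 in homozygous ileum, below the 46.9, 58.5 and 56.4 FPKM of its neighbour *Acaa1a*.

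*Acaa1b* (chr9:119148023-119157093, minus strand, GRCm38) and *Acaa1a* (chr9:119339676-119350299, plus strand) are near copies, which matters for how far their counts can be separated. Over 1272 coding bases the main transcripts of the GENCODE annotation of GRCm38 differ at 44 positions (96.5% identity), and their longest identical run is 327 bases. Of all 150-base windows of the annotated transcripts, 11.3% of those of *Acaa1b* occur also in *Acaa1a*, and 3.88% of those of *Acaa1a* occur in *Acaa1b*. The authors counted only uniquely aligned reads, so that reads that fit both genes equally are in neither count. The coding stretch where both differ most within 1 exon shows what a unique read rests on. It covers coding bases 268 to 297 in exon 3 of each gene, at chr9:119342725-119342754 (plus strand) and chr9:119155771-119155800 (minus strand), and the 9 bases that differ are in capitals, 5′ to 3′:
Acaa1a: aatgtTcttGagccAggAgcCggGgcTGtC
Acaa1b: aatgtGcttCagccCggGgcTggAgcCAtT

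*Acaa1a*, the thiolase gene with the higher level, ranged from 185 to 237 CPM in controls (median 206), from 227 to 275 in heterozygous libraries (median 264) and from 224 to 299 in homozygous libraries (median 239). Of the IEC-*Ppara* libraries, 5 heterozygous and 4 homozygous ones lay above the highest control. The log2 fold changes of 0.27 ± 0.09 and 0.35 ± 0.09 in homozygous and heterozygous mice had adjusted p-values of 0.360 and 0.170 (edgeR) and did not pass.

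*Hsd17b4* encodes the bifunctional enzyme that hydrates and dehydrogenates branched and very-long-chain acyl-CoA. It ranged from 139 to 195 CPM in controls (median 156), from 187 to 279 in heterozygous libraries (median 234) and from 237 to 273 in homozygous libraries (median 246). All 6 homozygous libraries and 5 of the 6 heterozygous ones lay above the highest control, control 1. The log2 fold change was 0.65 ± 0.10 in homozygous mice (adjusted p = 0.00166) and 0.59 ± 0.10 in heterozygous mice (adjusted p = 0.00740, edgeR).

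*Ehhadh*, the other bifunctional enzyme of the cycle, ranged from 64.4 to 92.0 CPM in controls, from 81.1 to 137 in heterozygous and from 80.6 to 121 in homozygous libraries, and the groups overlapped. On the log2 scale it differed from control by 0.38 ± 0.13 in homozygous and 0.52 ± 0.13 in heterozygous mice (adjusted p = 0.397 and 0.143, edgeR). *Acox2*, an oxidase for branched acyl-CoA and bile acid intermediates, ranged from 15.8 to 20.2 CPM in controls, from 18.6 to 33.3 in heterozygous and from 19.0 to 28.0 in homozygous libraries. Its log2 fold change was 0.40 ± 0.15 and 0.61 ± 0.15 in the same order (adjusted p = 0.481 and 0.143). For both genes the IEC-*Ppara* libraries spread more widely than the controls, and 4 of 6 heterozygous libraries lay above every control.

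*Scp2* did not pass the adjusted test in either comparison. It ranged from 239 to 277 CPM in controls (median 252), from 260 to 329 in heterozygous libraries (median 306) and from 279 to 370 in homozygous libraries (median 295), where every library exceeded the highest control. The log2 fold changes were 0.27 ± 0.08 and 0.28 ± 0.08 (adjusted p = 0.239 and 0.306, edgeR). Of the 150-base windows of its transcripts, 14.5% occur also in *Scp2-ps2*. Read pairs that fit both equally are not in its count, and their number was not measured. *Acox3*, a further acyl-CoA oxidase, had no unadjusted p under 0.05 in either comparison. It ranged from 69.1 to 84.0 CPM in controls, from 67.0 to 82.0 in heterozygous and from 66.4 to 83.1 in homozygous libraries. Its log2 fold change was -0.06 ± 0.05 in homozygous and 0.02 ± 0.05 in heterozygous mice (adjusted p = 0.832 and 1.00, edgeR).

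**Figure D3:**
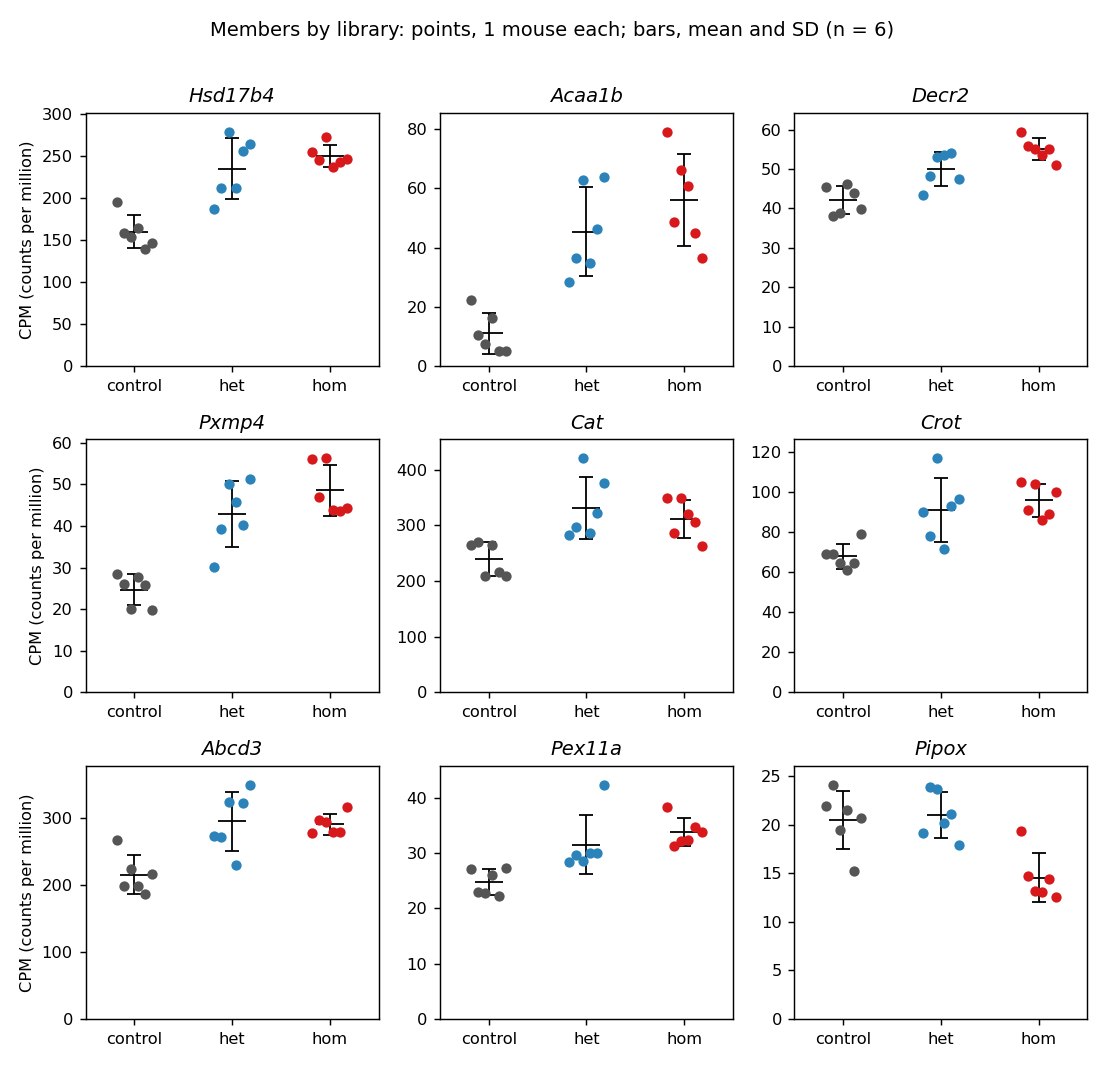
CPM of 9 members in every library, 1 point per mouse, with bars for the mean and SD (n = 6) and axes from 0. For *Acaa1b* and *Pxmp4* all 12 IEC-*Ppara* libraries lie above every control, for *Decr2*, *Hsd17b4*, *Crot* and *Abcd3* the 6 homozygous ones do, and *Pipox* is lower in 5 of the 6 homozygous libraries than in any control.

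Of the α-oxidation and auxiliary enzymes, *Decr2* passed the adjusted test in homozygous mice. It encodes the peroxisomal 2,4-dienoyl-CoA reductase, which prepares unsaturated fatty acids for β-oxidation (chr17:26081208-26090337, minus strand). It ranged from 38.0 to 46.3 CPM in controls (median 41.9), from 43.5 to 54.1 in heterozygous libraries (median 50.6) and from 50.9 to 59.4 in homozygous libraries (median 55.1). The homozygous libraries did not overlap the controls, and 5 of 6 heterozygous ones lay above them. The fold change was 0.39 ± 0.07 on the log2 scale in homozygous mice (adjusted p = 0.00993) and 0.28 ± 0.07 in heterozygous mice (adjusted p = 0.168, edgeR). The difference between both groups, 0.11 ± 0.07, did not pass the test (adjusted p = 0.661), so that a call in 1 group and not in the other is not a difference between them.

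The other enzymes of this group did not pass the test in either comparison with control. *Phyh* ranged from 150 to 172 CPM in controls and from 135 to 186 in homozygous libraries, with log2 fold changes of -0.04 ± 0.08 in homozygous and 0.10 ± 0.08 in heterozygous mice. *Amacr*, the racemase that supplies branched acyl-CoA to the cycle, had log2 fold changes of -0.10 ± 0.09 and -0.00 ± 0.09. *Pecr*, a trans-2-enoyl-CoA reductase, had the lowest fold change of the group at -0.26 ± 0.13 in homozygous mice (unadjusted p = 0.0529, adjusted p = 0.62, edgeR), while it was 0.14 ± 0.13 in heterozygous mice. Its levels of 10.8 to 16.4 CPM in homozygous libraries lay within those of controls (10.6 to 18.4), and the difference of -0.40 ± 0.13 between homozygous and heterozygous mice had an adjusted p of 0.530.

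The acyl shuttle gene *Crot* lay just outside the adjusted threshold. It encodes carnitine octanoyltransferase, which makes the carnitine esters that leave the organelle. It ranged from 61.2 to 79.2 CPM in controls (median 66.9), from 71.7 to 117 in heterozygous libraries (median 91.7) and from 86.4 to 105 in homozygous libraries (median 95.8), the last of which did not overlap the controls. The fold change was 0.50 ± 0.11 on the log2 scale in homozygous mice (adjusted p = 0.0549) and 0.45 ± 0.11 in heterozygous mice (adjusted p = 0.136, edgeR). The homozygous difference passed the threshold under 7 of 14 other ways of fitting the counts, with adjusted p-values from 0.00149 to 0.432, and in 5 of 18 fits with 1 library left out. The nudix hydrolases *Nudt7*, *Nudt12* and *Nudt19*, of which *Nudt7* and *Nudt19* cleave CoA and its esters and *Nudt12* cleaves NADH, showed log2 fold changes between 0.03 and 0.13 in both comparisons, with none at an unadjusted p under 0.05. The lowest was *Nudt19*, which ranged from 22.3 to 26.6 CPM in controls, from 21.4 to 29.7 in heterozygous and from 21.0 to 31.3 in homozygous libraries (0.04 ± 0.10 in homozygous mice, adjusted p = 0.962, edgeR).

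Among the membrane proteins, *Pxmp4* had the smallest p-value of all members. It encodes a peroxisomal membrane protein of the PMP24 type (chr2:154585758-154603708, minus strand). It ranged from 19.9 to 28.5 CPM in controls (median 26.0), from 30.1 to 51.2 in heterozygous libraries (median 43.0) and from 43.7 to 56.3 in homozygous libraries (median 45.7). No IEC-*Ppara* library overlapped the controls. The log2 fold change was 0.98 ± 0.12 in homozygous mice (adjusted p = 0.000110) and 0.82 ± 0.12 in heterozygous mice (adjusted p = 0.000951, edgeR).

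*Abcd3*, the transporter for branched and dicarboxylic acyl-CoA and the most abundant transporter of the list (32.6 FPKM in controls), ranged from 186 to 267 CPM in controls (median 208), from 230 to 349 in heterozygous libraries (median 297) and from 277 to 316 in homozygous libraries (median 286). The homozygous libraries did not overlap the controls, and 5 of 6 heterozygous ones lay above them. Its log2 fold changes of 0.43 ± 0.11 and 0.48 ± 0.11 had adjusted p-values of 0.140 and 0.0963 (edgeR) and did not pass. *Slc25a17* encodes a carrier for CoA and other cofactors, *Abcd4* a further ABC transporter and *Pxmp2* a channel protein. These genes showed log2 fold changes between -0.19 and 0.12, and the groups overlapped for each. The lowest, *Pxmp2*, ranged from 1.71 to 3.50 CPM in controls, from 1.90 to 3.86 in heterozygous and from 1.78 to 2.7 in homozygous libraries, with a log2 fold change of -0.19 ± 0.21 in homozygous mice (adjusted p = 0.855, edgeR).

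*Abcd2*, another ABC transporter of the list, varied more between the libraries of a group than between genotypes. It ranged from 0.782 to 14.7 CPM in controls (median 2.60), from 0.958 to 13.7 in heterozygous libraries (median 1.74) and from 1.37 to 13.0 in homozygous libraries (median 4.09), and its log2 fold change of 0.33 ± 0.77 had the largest error of all members. The 9 libraries with the highest *Abcd2* (3.86 to 14.7 CPM) were also the 9 with the highest sum of the adipocyte genes *Adipoq*, *Plin1*, *Cfd*, *Lep*, *Adrb3* and *Retn* (104 to 570 CPM). In the other 9 libraries *Abcd2* lay between 0.782 and 1.77 CPM and the adipocyte sum between 0.127 and 36.2 CPM. The first 9 were 3 control, 2 heterozygous and 4 homozygous libraries. *Adipoq*, the adipocyte hormone adiponectin, was at 9.43 to 56.6 CPM in these libraries and at 0 to 3.36 CPM in the others. The list was chosen after *Abcd2* had been seen, and its part in the levels of *Abcd2* was not tested.

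**Figure D4:**
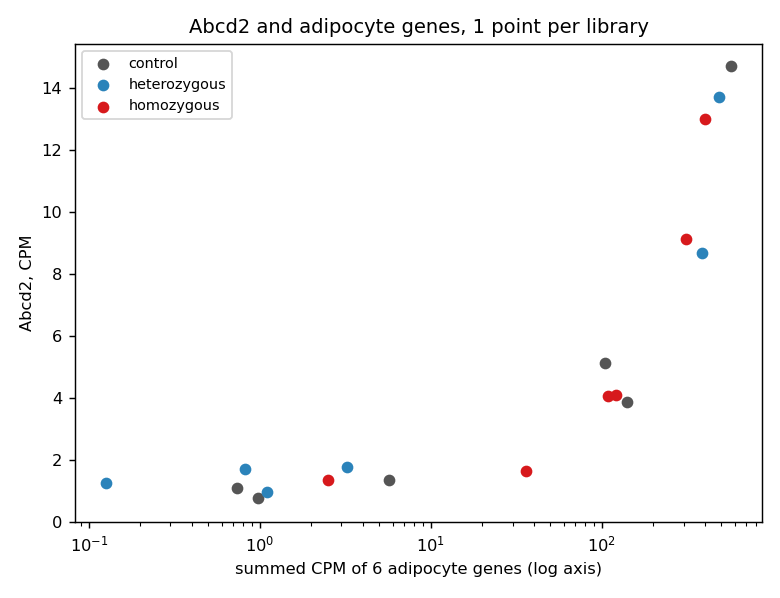
*Abcd2* in CPM against the summed CPM of 6 adipocyte genes on a log axis, 1 point per library, colored by genotype. The 9 libraries with an adipocyte sum of 104 CPM or more hold *Abcd2* at 3.86 to 14.7 CPM, and the other 9 at 0.782 to 1.77 CPM, with all 3 genotypes on both sides.

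With the adipocyte sum as a covariate, a fit added after the data were seen, the members called in each comparison with control included all 4 called without it.

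No ether lipid gene passed the adjusted test. *Gnpat* and *Agps* carry out the first acyl and alkyl transfers in the organelle, and *Far1* and *Far2* supply the fatty alcohol. Log2 fold changes ran from -0.21 (*Far2*) to 0.08 (*Far1*) in homozygous mice. *Far1* ranged from 11.5 to 21.1 CPM in controls, from 9.58 to 16.4 in heterozygous and from 12.4 to 20.8 in homozygous libraries. Its log2 fold change of -0.37 ± 0.16 was the lowest of all members in heterozygous mice (unadjusted p = 0.0354, adjusted p = 0.910), and the groups overlapped. In homozygous mice it was 0.08 ± 0.16 (adjusted p = 0.947, edgeR). *Far2* ranged from 70.4 to 89.3 CPM in controls, from 75.6 to 85.1 in heterozygous and from 57.8 to 84.5 in homozygous libraries, and its log2 fold change in homozygous mice was -0.21 ± 0.11 (adjusted p = 0.644, edgeR).

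Of the redox enzymes and other oxidases, *Cat* (chr2:103453849-103485160, minus strand) ranged from 209 to 270 CPM in controls (median 241), from 283 to 421 in heterozygous libraries (median 310) and from 263 to 349 in homozygous libraries (median 313). All 6 heterozygous and 5 of 6 homozygous libraries lay above the highest control. In heterozygous mice the log2 fold change was 0.50 ± 0.10 (adjusted p = 0.0373) and 0.39 ± 0.10 in homozygous mice (adjusted p = 0.142, edgeR). The heterozygous call was not stable: leaving out 1 library at a time, it was lost in 11 of 18 fits, with adjusted p-values up to 0.135, and it was kept in 9 of 14 other fits. The 11 fits left out control 2 to 6, heterozygous 3, 5 or 6, or homozygous 3, 4 or 5. The fold change itself lay between 0.42 and 0.55 in these 18 fits.

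*Ephx2*, a soluble epoxide hydrolase, ranged from 41.2 to 55.9 CPM in controls, from 51.2 to 76.2 in heterozygous and from 47.1 to 76.0 in homozygous libraries, with log2 fold changes of 0.44 ± 0.11 and 0.29 ± 0.11 in heterozygous and homozygous mice (adjusted p = 0.211 and 0.548). *Idh1* differed by 0.19 ± 0.09 in both comparisons, and *Paox*, a polyamine oxidase, by 0.02 ± 0.11 in homozygous and 0.00 ± 0.11 in heterozygous mice. The groups overlapped for each of these genes. Of the 150-base windows of *Paox* transcripts, 20.4% occur also in *Gm19680*.

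*Pipox* had the lowest fold change of all members in homozygous mice. It encodes an oxidase of pipecolic acid and sarcosine. It ranged from 15.2 to 24.1 CPM in controls (median 21.1), from 17.9 to 23.8 in heterozygous libraries (median 20.7) and from 12.5 to 19.4 in homozygous libraries (median 13.8). Of the 6 homozygous libraries, 5 lay below the lowest control, and the sixth, homozygous 1, lay within the range of the other groups. The log2 fold change of -0.49 ± 0.12 against control did not pass the adjusted test (unadjusted p = 0.000666, adjusted p = 0.109, edgeR). It passed in 1 of 14 other ways of fitting, DESeq2 (adjusted p = 0.0158), with adjusted p-values up to 0.275 in the others. With 1 library left out it passed in 2 of 18 fits, without homozygous replicate 1 (adjusted p = 0.0159) and without control replicate 5 (adjusted p = 0.0205). The summed smooth muscle genes overlapped between homozygous and control libraries, with medians of 5339 and 4216 CPM. With this sum as a covariate, the log2 fold change of *Pipox* was -0.41 ± 0.12 (adjusted p = 0.275). The matrix proteases *Lonp2* and *Tysnd1* had log2 fold changes between -0.00 and 0.12, and *Lonp2* ranged from 84.4 to 96.6 CPM in controls and from 90.6 to 103 in heterozygous libraries (unadjusted p = 0.0355, adjusted p = 0.910, edgeR). In homozygous libraries *Lonp2* ranged from 90.2 to 97.9 CPM (0.04 ± 0.05, adjusted p = 0.875). *Tysnd1* ranged from 45.0 to 63.4 CPM in controls, from 48.5 to 59.5 in heterozygous and from 44.0 to 58.6 in homozygous libraries (-0.00 ± 0.08 in homozygous mice, adjusted p = 0.999).

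No peroxin passed the adjusted test, and 1 stood apart from the rest. *Pex11a*, which encodes a membrane protein of peroxisome elongation and division, ranged from 22.2 to 27.4 CPM in controls (median 24.5), from 28.3 to 42.4 in heterozygous libraries (median 29.9) and from 31.4 to 38.3 in homozygous libraries (median 33.1). All 12 IEC-*Ppara* libraries lay above every control. The log2 fold change was 0.45 ± 0.10 in homozygous mice (adjusted p = 0.0534) and 0.37 ± 0.10 in heterozygous mice (adjusted p = 0.211, edgeR), just outside and outside the threshold. In homozygous mice it passed under 7 of 14 other ways of fitting and in 3 of 18 fits with 1 library left out. Over the 14, the adjusted p ran from 0.00330 (DESeq2) to 0.610 without the 4 libraries richest in B cell genes, where the log2 fold change was 0.35 ± 0.12. *Pex11g*, its relative, ranged from 3.98 to 5.14 CPM in controls, from 3.55 to 4.68 in heterozygous and from 3.54 to 5.43 in homozygous libraries. It had log2 fold changes of -0.12 ± 0.12 in homozygous and -0.18 ± 0.12 in heterozygous mice (adjusted p = 0.839 and 1.00, edgeR). An opposite-strand gene, *Gm44775*, covers 41.1% of the exonic bases of *Pex11g*, and nothing in the study's methods marks strand.

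The import peroxins take up matrix enzymes by their targeting signals: *Pex5* and *Pex7* encode the receptors and *Pex13* and *Pex14* their docking partners. *Pex14* ranged from 16.6 to 22.2 CPM in controls, from 17.9 to 23.3 in heterozygous and from 18.9 to 27.9 in homozygous libraries, and had the highest fold change of this group, 0.21 ± 0.10 in homozygous mice (unadjusted p = 0.0422, adjusted p = 0.601). The opposite-strand gene *Gm17029* covers 28.3% of its exonic bases. For *Pex5*, *Pex7* and *Pex13* the log2 fold changes lay between -0.04 and 0.11. *Pex7* was the lowest in homozygous mice (-0.04 ± 0.08, adjusted p = 0.951), with 24.7 to 27.7 CPM in controls, 22.7 to 29.9 in heterozygous and 22.5 to 27.8 in homozygous libraries. The genes of receptor export, *Pex2*, *Pex6*, *Pex10* and *Pex26*, differed from control by -0.03 in homozygous mice and by 0.01 to 0.09 in heterozygous mice. The homozygous values ran from -0.03 ± 0.08 for *Pex2* (adjusted p = 0.953) to -0.03 ± 0.09 for *Pex26* (adjusted p = 0.971, edgeR). *Pex2* ranged from 31.1 to 38.8 CPM in controls, from 30.9 to 36.9 in heterozygous and from 30.4 to 37.2 in homozygous libraries, and *Pex26* from 21.4 to 28.3, from 22.5 to 28.8 and from 20.4 to 29.4 CPM.

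*Pex3*, *Pex16* and *Pex19* insert membrane proteins. *Pex16* ranged from 36.4 to 46.3 CPM in controls, from 38.6 to 52.4 in heterozygous and from 41.3 to 52.6 in homozygous libraries, with log2 fold changes of 0.22 ± 0.08 and 0.19 ± 0.08 in heterozygous and homozygous mice (adjusted p = 0.723 and 0.571). *Pex19* differed by 0.11 ± 0.07 and 0.10 ± 0.07, and *Pex3* by 0.08 ± 0.10 and -0.04 ± 0.10 (adjusted p = 1.00 and 0.951, edgeR). *Pex3* ranged from 9.85 to 11.7 CPM in controls, from 8.82 to 12.6 in heterozygous and from 9.27 to 11.9 in homozygous libraries. The ranges of the groups overlapped for all 3 genes. Over the 13 peroxins, an unadjusted p under 0.05 was reached by *Pex11a*, *Pex14* and *Pex16* in homozygous mice and by *Pex11a* and *Pex16* in heterozygous mice, all higher. Of all genes tested, 8.06% and 5.29% reached it, 4.03% and 2.76% with a higher level, beside 3 and 2 of the 13 peroxins.

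**Figure D5:**
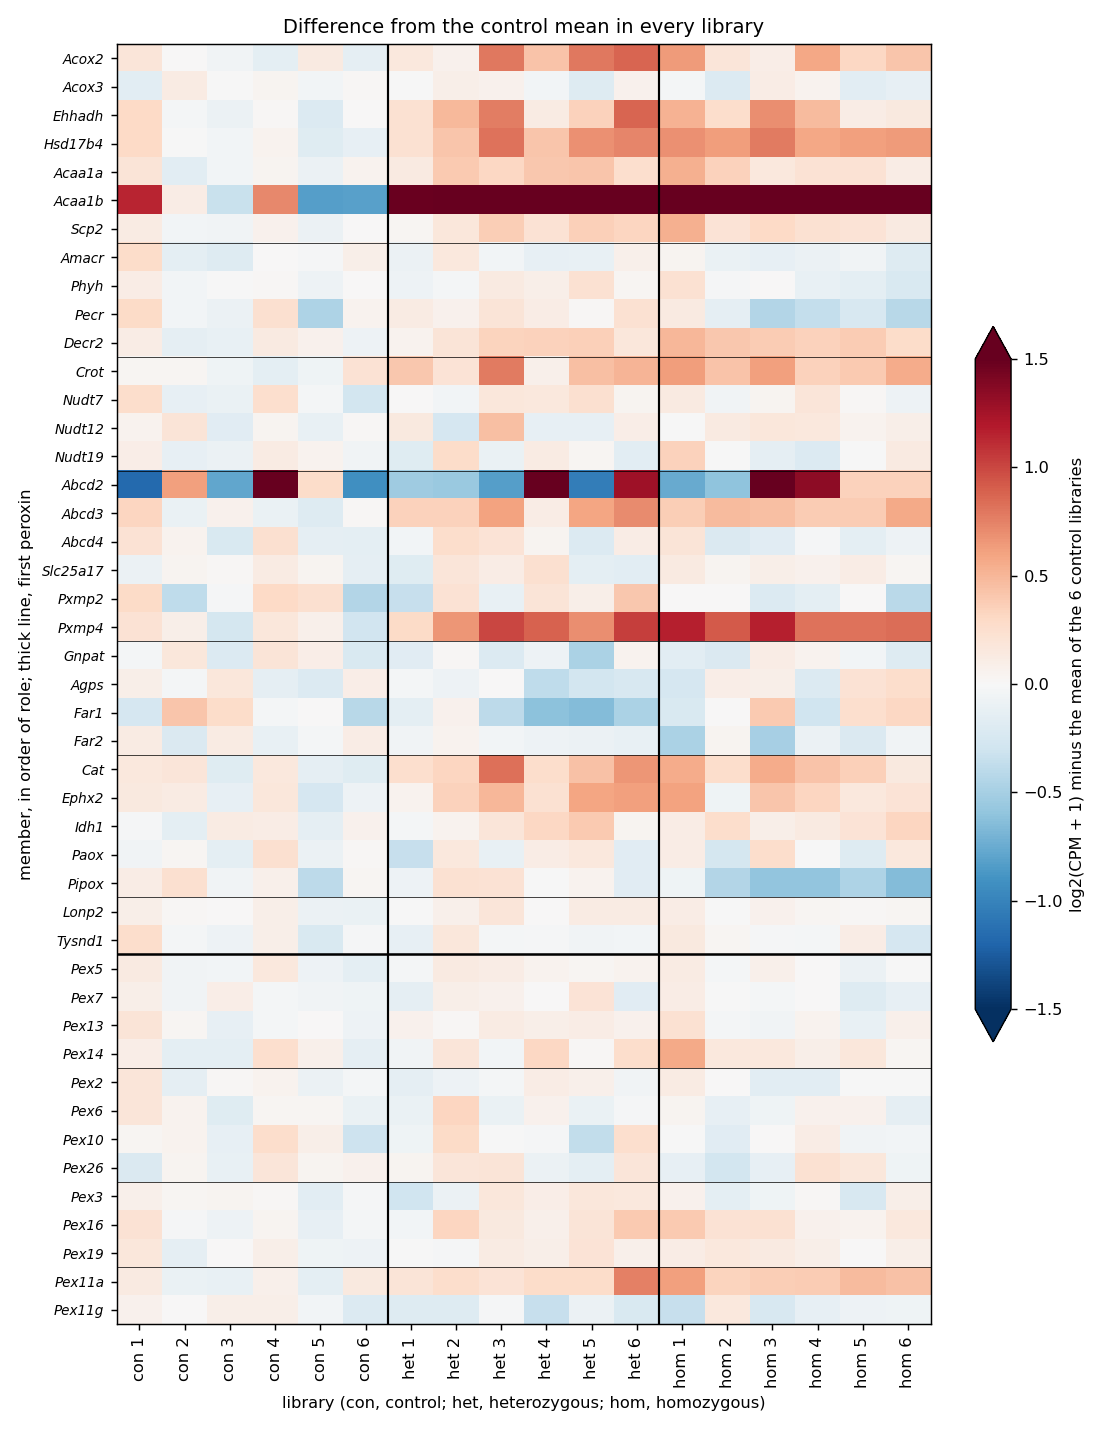
Difference of log2(CPM + 1) from the control mean for the 45 tested members (rows, by role, with a thick line before the first peroxin) in the 18 libraries (columns), with colors saturating at 1.5 in either direction. *Acaa1b* is high in all 12 IEC-*Ppara* libraries, and *Abcd2* is high in single libraries of every genotype. Most of the peroxin rows are pale, with *Pex11a* at 0.76 in heterozygous 6 and *Pex14* at 0.57 in homozygous 1.

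Members were also counted by whether the groups overlapped. Every homozygous library lay above every control for 8 members, *Hsd17b4*, *Acaa1b*, *Scp2*, *Decr2*, *Crot*, *Abcd3*, *Pxmp4* and *Pex11a*, where 0.593% of all genes tested did. Every heterozygous library lay above every control for 4 members, *Acaa1b*, *Pxmp4*, *Cat* and *Pex11a*, where 0.293% of all genes did. No member lay wholly below the controls in either group. Of all 12645 genes tested, 33 did in homozygous and 22 in heterozygous mice.

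The libraries of a group were not alike across the members. Control 1 was the highest control for 19 of the 45 tested members, *Acaa1b*, *Hsd17b4* and *Pxmp4* among them. Heterozygous 1 was the lowest heterozygous library for 23 members, and homozygous 1 was the highest homozygous library for 24. In the heterozygous group *Ppara* itself was lowest in heterozygous 1 (107 CPM) and highest in heterozygous 6 (196 CPM), where *Acaa1b* was at 28.3 and 63.8 CPM. No such order was seen in the homozygous group: *Ppara* was highest in homozygous 5 (279 CPM), where *Acaa1b* was at 45.0 CPM, while *Acaa1b* was highest in homozygous 1 (79.2 CPM), where *Ppara* was at 216 CPM.

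No member passed the adjusted test between homozygous and heterozygous ileum, where 1 gene (0.00791%) of all tested did. For no member were the groups apart, where 17 of all 12645 genes were wholly higher and 17 wholly lower in homozygous libraries. Of the members, 3 had an unadjusted p under 0.05 (7.61% of all genes). The 3 were *Pipox* (-0.55 ± 0.12, adjusted p = 0.475), *Pecr* and *Far1* (0.45 ± 0.16, adjusted p = 0.616). DESeq2 called 1 member, *Pipox* (adjusted p = 0.0248), among 10 of all genes tested. For *Acaa1b* the difference was 0.27 ± 0.32 and for *Hsd17b4* 0.06 ± 0.10 on the log2 scale, and for *Ppara* 0.59 ± 0.17.

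The libraries were compared by sex as well. Of the 45 tested, 0 differed between males and females at an adjusted p under 0.05 (edgeR, with genotype in the fit), where 0.0554% of all genes did, and 2, *Acox2* and *Tysnd1*, had an unadjusted p under 0.05, where 3.39% of all genes did. The effect of the homozygous genotype differed between the sexes for 0 members after adjustment (edgeR interaction term), as for 0 of all 12645 genes tested. Without adjustment it differed for 5 members, where 2.04% of all genes did. Among these 5, *Acaa1b* had a difference of 1.28 ± 0.59 between the log2 fold changes of males and females (adjusted p = 1.00). DESeq2 and limma-voom also called 0 members in both tests.

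Of 33 other peroxisome genes listed beside the members, 28 were tested. *Aldh3a2*, a fatty aldehyde dehydrogenase, rose in homozygous mice (log2 fold change 0.50, adjusted p = 0.0182) and in heterozygous mice (0.50, adjusted p = 0.0243). *Slc27a2*, a very-long-chain acyl-CoA synthetase, rose in heterozygous mice (0.64, adjusted p = 0.0400) but did not pass in homozygous mice (0.50, adjusted p = 0.144). An unadjusted p under 0.05 was reached by 8 of the 28 in homozygous mice, all higher, and by 12 in heterozygous mice, 11 of them higher, where 8.06% and 5.29% of all genes reached it (4.03% and 2.76% higher). The adjusted test called 1 and 2 of the 28, where it called 0.411% and 0.293% of all genes. The medians were 0.02 and 0.15 on the log2 scale, beside -0.00 and -0.01 over all genes tested.

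The promoters of the members were read for the kind of element that PPARα binds, a direct repeat of 6 letters spaced by 1 base. RefSeq promoter windows of GRCm38.p6, from 250 bases before to 50 after a gene's start, matched 37 of the 46 members by symbol, *Hsd17b4* and *Abcd2* not among them. This motif, AGGNCA, any base, AGGNCA, was searched on both strands and was in the window of 0 of these 37 members and of 0.451% of all 27025 genes with a window, which says only that these letters are not in these windows. A looser search, added afterwards, allowed 2 mismatches to the 12 stated letters of AGGTCA, any base, AGGTCA. It found 2 members, *Acox2* and *Cat* (5.41% of the 37), against 4.40% of all genes, a share near the background. Both sites are printed 5′ to 3′ on the minus strand, to show how close the nearest sequences come, with the matching letters in capitals. That of *Cat* (chr2:103485337-103485365) starts 204 bases before the start of its RefSeq window's transcript, and that of *Acox2* (chr14:8258810-8258838) lies within the 50 bases after such a start. These RefSeq starts are not the ends of the annotated genes: *Acox2* extends over chr14:8225511-8259353 on the minus strand, so that its site lies inside the gene:
Cat: actctcagAGGTCAgAGaaCAccagcagg
Acox2: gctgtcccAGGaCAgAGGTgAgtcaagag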

How the data were processed

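The 46 genes and the role, marker and other peroxisome lists were chosen with earlier results of these data known, and every gene of the list is accounted for. Full statistics are given for members with an adjusted p under 0.05 in any comparison and for those with the highest and lowest fold in a role in homozygous mice. Genes outside this rule (*Scp2*, *Abcd3*, *Abcd2*, *Ehhadh*, *Acox2*, *Acaa1a*, *Ephx2*) were described after their values were seen. Groups are those of the sample labels, with 1 library per mouse.

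Poly-A RNA was reverse transcribed with random hexamers and read as pairs. The authors aligned reads with STAR 2.7.9a to the Ensembl primary assembly (GRCm38) and counted uniquely aligned, unambiguous reads with featureCounts 2.0.3 (Subread), and these deposited counts are raw. In the CPM table, the authors scaled each library's counts to its total. The CPM printed here were computed from the counts in the same way, and were checked against that table. In the FPKM column, the authors divided further by summed exon length, as was done here. The log2 CPM values deposited were not used here.

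The filter kept 13709 genes above 3 CPM in 4 or more libraries, and the 12645 protein-coding ones were compared with edgeR 4.0.16 (TMM, glmQLFit, glmQLFTest, 1 coefficient per genotype, all libraries in 1 fit) in R 4.3.3, with Benjamini-Hochberg adjustment at 0.05. The SE is the log2 fold change divided by the root of the F value. The script was tested on simulated data. Alternatives were DESeq2 1.42.0, limma-voom (limma 3.58.1), other size factors, other filters, all biotypes, only the groups compared, sex as a covariate, a replicate block, a robust fit, 4 libraries or each library left out, and, added after the data were seen, covariates for the adipocyte and smooth muscle genes. Uniqueness was read from GENCODE transcripts with Python 3.11.15 and pandas 2.3.3. Protein sequences were not used here. Some genes are not reported here.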

Additional observations from a re-analysis of the deposited data

Results flagged for a closer look

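Each member was examined in each group of 6 libraries for a library that stood far from the rest (Dixon's ratio, 138 groups), and 7 were marked. Chance marks about 1 group in 20, so that 7 is about the number chance gives, and the values are listed as a description. Homozygous 1 was the highest homozygous library for *Scp2* (370 CPM, nearest 313), *Pex14* (27.9 CPM, nearest 20.9) and *Pipox* (19.4 CPM, nearest 14.7). Heterozygous 2 was the highest heterozygous library for *Tysnd1* (59.5 CPM, nearest 52.3) and *Pex6* (106 CPM, nearest 88.7). *Pex11a* was highest in heterozygous 6 (42.4 CPM, nearest 30.1). *Abcd2* was highest among controls in control 4 (14.7 CPM, nearest 5.14), the library with the highest sum of adipocyte genes (570 CPM).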

How the results depend on the processing

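*Pxmp4* was called against control in both IEC-*Ppara* groups under all 14 alternatives and in all 18 fits with 1 library left out. In homozygous mice *Hsd17b4*, *Acaa1b* and *Decr2* were called in 13 of 14 alternatives and in 18 of 18 such fits; without the 4 libraries richest in B cell genes, which leaves fewer samples, their adjusted p-values were 0.0689, 0.0698 and 0.245 (log2 fold changes 0.63, 2.09 and 0.31), and 1 member was called in each comparison with control. In heterozygous mice *Acaa1b* was called in 13 of 14 alternatives, *Hsd17b4* in 11 and *Cat* in 9; without the same 4 libraries their log2 fold changes were 2.00, 0.61 and 0.54 (adjusted p = 0.123, 0.109 and 0.154). Of all genes tested, the fit without these 4 libraries called 31 in homozygous and 15 in heterozygous mice. DESeq2 called 9 members in homozygous mice, 11 in heterozygous mice and 1 between both groups. Of all 12645 genes it called 136, 80 and 10 in the same order, against 52, 37 and 1 with edgeR. With only the libraries of the groups compared, 2 members were called in heterozygous mice, and 23 of all genes. The cause of these differences was not tested. Leaving out each library in turn gave 4 to 6 members called in homozygous mice, 3 to 7 in heterozygous mice (7 without heterozygous replicate 4) and 0 between both groups. Of all genes, these fits called 43 to 65, 25 to 53 and 0 to 2 in the same order. In homozygous mice, leaving out control 6 or heterozygous 2, 3, 4 or 5 brought in *Crot*, leaving out control 1, control 6 or heterozygous 6 *Pex11a*, and leaving out control 1 *Abcd3*. In heterozygous mice, control 1 or heterozygous 4 did so for *Abcd3*, control 6 or heterozygous 4 for *Crot*, heterozygous 2 for *Acox2* and heterozygous 4 for *Ehhadh*. No direction was reversed among the members with an unadjusted p under 0.001.

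Whether the replicate numbers pair the samples cannot be told from the check made. Deviations from the group means correlated between -0.56 and 0.61 over 18 same-numbered pairs, 9 of them above 0.1. Pairs with different numbers were not examined beside them. The study describes its mice as littermates, and the labels used here name no litter. With a replicate block, 6 members were called in homozygous mice, 2 in heterozygous mice (*Acaa1b* and *Pxmp4*) and 0 between both groups. Of all genes, that fit called 49, 22 and 0 in the same order.

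Each group holds 6 mice, and transcript sequence shared with other genes can limit the counts of *Hacl1*, *Scp2*, *Paox*, *Gnpat* and both *Acaa1* genes. Opposite-strand genes share exonic bases with *Pex11g* (41.1%), *Nudt19* (35.0%), *Pex14* (28.3%), *Far2* (12.6%), *Acaa1b* (11.4%) and *Pxmp2* (10.8%). *Hacl1* shares 33.3% with genes on both strands, 9 other members share between 2.35% and 7.81%, and *Far1* and *Pex13* less.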
